A study of Mus musculus with 4 samples.

Results

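The transcripts described here are those of 30 mouse genes of cholesterol synthesis and transport, measured in single cells of postnatal testis kept in organ culture or taken directly from the animal. The members were listed by symbol, and all 30 were found among the 31053 gene identifiers (31017 symbols) counted. They comprise 19 synthesis enzymes, 4 regulators and 7 transport or uptake genes. The study prepared 4 single-cell libraries, 1 for each group, from Acr-Gfp transgenic mice on the C57BL/6 background, so every group carried the same reporter transgene. For the cultured groups, testes were removed at 7 days postpartum (dpp), cut into fragments and set on agarose in α-MEM with AlbuMAX, a lipid-rich albumin supplement, under a ceiling chip of PDMS, for 2 days (the 2 d culture) or for 7 days (the 7 d culture). The other libraries came from testes of 9 dpp and 14 dpp that were not cultured. Culture time added to the age at removal matches 9 dpp for the 2 d culture and 14 dpp for the 7 d culture, and these are called the 2 d pair and the 7 d pair. Where 4 values stand in a row, they belong to the 2 d culture, 9 dpp, the 7 d culture and 14 dpp. The sources used here do not say how many animals were pooled in a library, and 1 sentence of the protocol speaks of female gonads, whereas every sample is labelled testis. With 1 library per group there was no replicate check: culture and library cannot be told apart, intervals cover counting error only, and no p-value is given.

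After filtering, the libraries held 4816 to 6877 cells and 32078508 to 57585867 unique molecular identifiers (UMIs, counts of single captured RNA molecules), and pairs of libraries shared 35 to 86 cell barcodes. Cells were put into germ, Sertoli, Leydig and stromal classes by their UMIs for marker genes that are no members. The classes carried the markers of their names: Leydig markers summed to 8070 to 13200 CPM (UMIs scaled to a total of 1000000) in Leydig cells and to at most 55.4 CPM in each of the other 3 classes, and Sertoli markers summed to 15400 to 20300 CPM in Sertoli cells. The germ class held 2316 to 3534 cells, the Sertoli class 541 to 1160 and the stromal class 878 to 2192, peritubular myoid cells included. The Leydig class was small, with 64, 104, 51 and 134 cells. Median depth in the Sertoli class was 3415.5, 13980.5, 9391 and 9971 UMIs per cell.

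Cholesterol is built from acetyl-CoA through mevalonate, farnesyl diphosphate, squalene and lanosterol. When membrane sterol is low, SCAP escorts the transcription factor SREBP2 out of the endoplasmic reticulum to be activated, and SREBP2 then switches on the genes of the pathway; INSIG proteins hold SCAP back when sterol is plentiful. Excess sterol leaves cells through ABCA1 and ABCG1, whose genes respond to the oxysterol receptors LXR, and apolipoprotein E is an acceptor. In the testis, Leydig cells use cholesterol as the raw material of androgens and take it up from lipoprotein through SR-BI, the product of Scarb1. Sertoli cells also carry SR-BI and use it in clearing germ cell remnants.

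The promoters show what most of the enzyme genes have in common. RefSeq promoter windows (build GRCm38.p6, 250 bases before to 50 after the start) were matched for 23 members. The letters CCAAT, bound by NF-Y, a partner of SREBP2, were found on either strand in 19 of the 23, against 41.1% of all 27025 genes with a window, and in 15 of the 16 enzymes with a window. GGGCGG, an Sp1 motif, was found in 20 of the 23 members against 38.2% of all genes. TCACNCCAC, a strict form of the sterol regulatory element, was found only for Hmgcs1 among the 23, against 1.44% of all genes. The upstream parts of 3 windows are printed: Hmgcs1 for its sterol element, Mvk for the 5 CCAAT matches in its window, and Insig1 since its ratio in Sertoli cells was the largest among enzymes and regulators in the 2 d pair. All 3 lie on the plus strand, at chr13:119690101-119690350, chr5:114444019-114444268 and chr5:28071162-28071411. Capitals mark matches to TCACNCCAC and to CCAAT or its reverse complement ATTGG. These 2 motifs share no base here, and the 4 CCAAT matches in the Hmgcs1 window include 1 past the printed part.
Hmgcs1: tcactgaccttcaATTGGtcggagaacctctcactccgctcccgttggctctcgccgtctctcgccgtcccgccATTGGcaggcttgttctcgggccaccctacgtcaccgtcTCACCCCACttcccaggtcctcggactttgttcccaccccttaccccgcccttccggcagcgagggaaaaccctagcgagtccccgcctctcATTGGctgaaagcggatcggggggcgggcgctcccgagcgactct
Mvk: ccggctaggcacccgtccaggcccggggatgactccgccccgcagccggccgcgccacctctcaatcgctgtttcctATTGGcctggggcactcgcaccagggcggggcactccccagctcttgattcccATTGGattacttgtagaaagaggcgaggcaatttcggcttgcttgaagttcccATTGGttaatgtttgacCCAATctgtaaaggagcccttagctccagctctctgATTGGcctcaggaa
Insig1: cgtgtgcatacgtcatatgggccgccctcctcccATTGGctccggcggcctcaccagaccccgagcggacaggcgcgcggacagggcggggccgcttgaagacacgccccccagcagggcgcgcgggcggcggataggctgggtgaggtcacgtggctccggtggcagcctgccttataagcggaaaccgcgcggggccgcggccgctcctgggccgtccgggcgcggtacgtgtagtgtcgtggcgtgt
Hmgcs1 has 3 CCAAT matches in the printed stretch and Insig1 has 1. A match is a description of letters, and a window without one says only that these letters are not in it.

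Levels are CPM of the UMIs summed over the cells named, and differences are log2 ratios of CPM plus 1, culture over in vivo unless stated. An interval given with a difference is that of the log2 ratio of CPM without the added 1. Because 3′ counting gives about 1 tag per transcript, no length scaling was applied and levels are compared within a gene. A gene counts as past the fold at 1.5-fold or more in size, among genes that reached 50 UMIs in the cells summed, all libraries together. In sums over all cells, fewer cells of a type and less RNA per cell cannot be told apart. In the 2 d pair 3 members were past the fold upward (Insig1, Npc2, Apoe), where 8.84% of the 16616 genes tested were, and none downward, where 11.3% were. In the 7 d pair 2 were past it upward (Abcg1, Apoe; background 9.03%) and 3 downward (Fdps, Ebp, Scarb1; background 7.51%). Most members, like most genes tested, thus had whole-library levels of culture and in vivo within 1.5-fold. Values by class are given below.

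**Figure D1:**
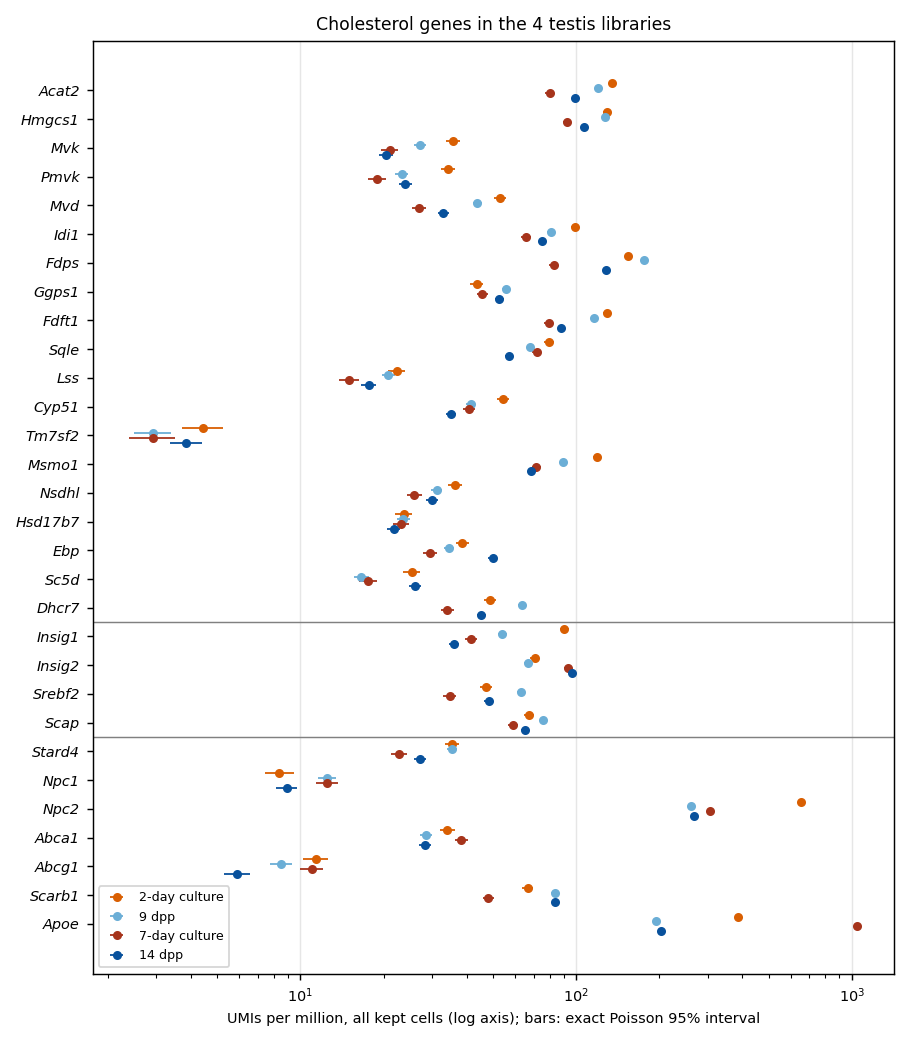
Level of each member in the 4 libraries, as CPM over all kept cells on a log axis, with points for libraries and bars for exact Poisson 95% intervals; horizontal lines part enzymes, regulators and transport genes. Apoe lies at 1040 CPM in the 7 d culture and at 194 to 387 CPM in the other 3, and Npc2 at 654 CPM in the 2 d culture and 261 to 306 CPM elsewhere.

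The summed level of the synthesis enzymes was higher in the 2 d culture than at 9 dpp in germ and Sertoli cells, and lower in both cultures than in vivo in Leydig cells. Summed over the 19 enzymes, germ cells held 1510 CPM (95% interval 1480 to 1530), 1220 (1200 to 1230), 787 (775 to 800) and 957 (946 to 968). Sertoli cells held 1310 CPM (1280 to 1330), 981 (966 to 997), 811 (790 to 833) and 878 (862 to 894). In both classes the 2 d culture was the highest library and the 7 d culture the lowest. Over all cells the sums were 1260, 1160, 845 and 982 CPM. Over all alternatives run, the enzyme median of the 2 d pair lay between 0.29 and 0.44 in germ cells and between 0.35 and 0.55 in Sertoli cells, cells of at least 2000 UMIs included.

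**Figure D2:**
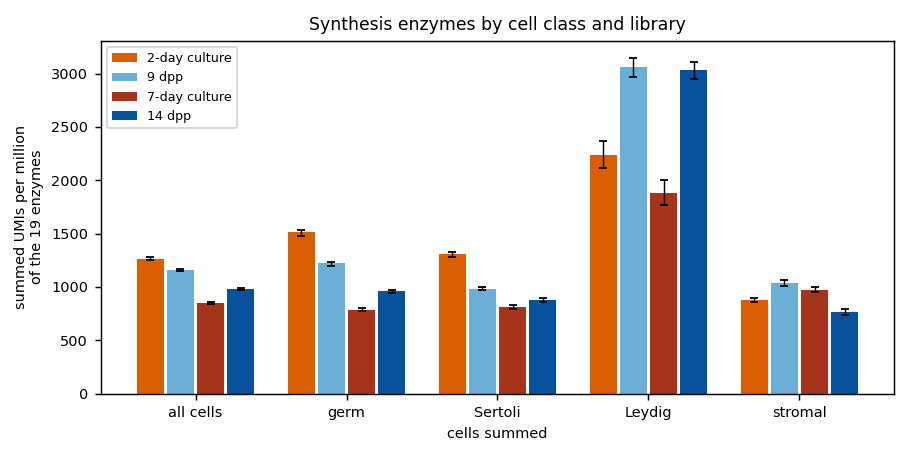
Summed level of the 19 synthesis enzymes in CPM, by cell class and library, with exact Poisson 95% intervals. Leydig cells at 9 dpp and 14 dpp stand at 3060 and 3030 CPM, above the cultured Leydig cells at 2240 and 1880 CPM, while germ and Sertoli cells are highest in the 2 d culture.

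In germ cells the median enzyme was 0.41 higher on the log2 scale in the 2 d culture than at 9 dpp, with 15 of the 19 above 0, while the median of all genes tested was 0.00. Upward past the fold were 7 members, against a background of 6.05%: Mvk (mevalonate kinase), Pmvk (phosphomevalonate kinase), Idi1 (isopentenyl diphosphate isomerase), Msmo1 (sterol C4-methyl oxidase), Sc5d (sterol C5-desaturase), Insig1 and Apoe. Downward past it was Abca1 alone (background 9.34%). Msmo1 read 98.5, 56.4, 33.7 and 39.0 CPM, so it was highest in the 2 d culture and lowest in the 7 d culture. In the 7 d pair the germ median was -0.20, and 1 member was past the fold upward (Apoe; background 4.04%) and 4 downward (Fdps, Ebp, Sc5d, Srebf2; background 8.34%). Of these 4, Srebf2 (-0.59) came within the fold under 6 of 11 alternatives and Ebp (-0.67) under 3 of 11, at -0.21 with 10 added to CPM. Sc5d turned round between the pairs. It read 31.7 CPM against 16.5 at 9 dpp, a difference of 0.90, and 16.9 CPM in the 7 d culture against 27.1 at 14 dpp, a difference of -0.65. Fdps, which makes farnesyl diphosphate, read 212 CPM against 221 in the 2 d pair and 87.1 against 147 in the 7 d pair, the latter a difference of -0.75.

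The germ class held different stages in the 4 libraries. Its pachytene list summed to 24.5, 26.9, 815 and 1110 CPM, with UMIs of all 7 genes in every library but the first, where Pgk2 was at 0. Its spermatogonial list summed to 2470, 2090, 1500 and 1830 CPM. Other lists differed in the same germ classes: inflammation genes summed to 366, 2.57, 15.6 and 1.39 CPM, stromal markers to 109, 48.5, 46.5 and 40.1 CPM, and lymphocyte and red cell genes to 100, 18.3, 2.67 and 258 CPM. The part of stage or of these lists in the germ values was not tested.

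In Sertoli cells the median enzyme was 0.47 higher in the 2 d pair, 17 of the 19 being above 0, with a median of -0.11 over all genes tested. Upward past the fold were 12 members (background 12.9%), among them the enzymes Pmvk, Idi1, Fdft1 (squalene synthase), Sqle (squalene epoxidase), Cyp51 (lanosterol 14-demethylase), Tm7sf2 (sterol C14-reductase) and Sc5d, beside Insig1, Npc2, Abca1, Abcg1 and Apoe. Npc1 alone was past it downward (background 17.0%). In the 7 d pair the enzyme median was -0.05. Upward past the fold were then 7 members (Sqle, Tm7sf2, Insig1, Npc1, Abca1, Abcg1, Apoe; background 19.4%) and 2 downward (Ebp, Scarb1; background 17.0%). The enzyme differences of the 2 d pair were thus mostly not past the fold in the 7 d pair, Sqle and Tm7sf2 being the exceptions. In the Sertoli classes of the 2 d pair other lists differed as well: stromal markers summed to 157 against 36.8 CPM, Leydig markers to 55.4 against 23.4, inflammation genes to 1080 against 3.00 and proliferation genes to 86.7 against 450. The part of these lists in the Sertoli enzyme values was not tested.

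Sqle, which oxidizes squalene before it is closed into the first sterol, read 73.0, 40.5, 32.0 and 19.1 CPM in Sertoli cells. The differences were 0.83 and 0.72. Both cultures exceeded their in vivo partner, and both later libraries lay below the earlier ones. Tm7sf2 was low throughout, with 7.28, 3.40, 4.02 and 1.75 CPM, and differed by 0.91 and 0.87. Ebp, the sterol isomerase of the late pathway, read 69.0, 84.8, 89.8 and 160 CPM. It was the 1 enzyme of the list with its highest level in Sertoli cells in all 4 libraries, and germ cells held at most 5.31 CPM of it. Germ markers summed to 206, 248, 359 and 1190 CPM in the Sertoli classes. The Ebp difference of the 7 d pair was -0.82, and -1.10 among Sertoli cells with at most 1 germ marker.

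In Leydig cells 7 of the 19 enzymes were past the fold downward in the 2 d pair and 12 in the 7 d pair, Dhcr7 with the largest ratio in both. Below 0 were 15 and then 14 of the 19, beside 4331 and then 3719 of the 7516 genes tested in that class. The median differences of the pairs were -0.26 and -0.76, against -0.12 and 0.01 for all genes tested in that class, and over the alternatives run the first lay between -0.59 and -0.04. In the 2 d pair 12 of the 29 members tested were past the fold downward (background 24.3%) and 3 upward (Scap, Npc2, Apoe; background 12.0%). In the 7 d pair 14 were past it downward (background 18.9%) and 5 upward (Mvd, Ggps1, Hsd17b7, Scap, Apoe; background 17.0%). Hmgcs1, Idi1, Cyp51, Sc5d, Dhcr7, Srebf2 and Scarb1 were past it downward in both pairs. Of these, Dhcr7 and Scarb1 stayed past it in both pairs under all 12 alternatives. In the 2 d pair Sc5d came within the fold under 6 of them, Cyp51 under 3, Hmgcs1 under 2 and Srebf2 under 1, and in the 7 d pair Hmgcs1 did so under 3 and Idi1 under 1. Those past it downward in the 2 d pair alone were Mvk, Sqle, Stard4, Npc1 and Abca1. The remaining member, Abcg1, had no UMI in any Leydig class, which allows up to 5.75 CPM in the 2 d culture and 1.70 CPM at 14 dpp.

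Dhcr7, the reductase that makes cholesterol in the last step, read 49.9, 220, 46.9 and 198 CPM in Leydig cells. The differences were -2.12 (95% interval -2.78 to -1.57) and -2.05 (-2.71 to -1.50), and the intervals of the levels in culture and in vivo did not overlap. In vivo it was much higher in Leydig cells than in stromal cells, which held 18.2 to 31.4 CPM in the 4 libraries. Hmgcs1, the cytosolic HMG-CoA synthase, read 397 CPM against 731 in the 2 d pair and 368 against 601 in the 7 d pair, differences of -0.88 and -0.71. Idi1 read 105 against 222 and 110 against 187 CPM, and Cyp51 read 105 against 169 and 83.0 against 164 CPM. Each of these was lower in both cultures, with differences between -1.07 and -0.67. Sc5d read 34.5 against 53.2 CPM and 55.9 against 120 CPM, and the interval of its first difference (-1.45 to 0.13) spanned 0.

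Other enzymes were lower in the 7 d pair only by this rule, a contrast that was not tested. Fdps read 458 against 432 CPM in the 2 d pair and 204 against 537 in the 7 d pair. Nsdhl, a sterol C4-decarboxylating dehydrogenase, read 70.9 against 81.2 and 54.1 against 163 CPM, and Tm7sf2 read 19.2 against 23.2 and 16.2 against 53.2 CPM. For both of these the 14 dpp library was the highest of the 4. Acat2, the thiolase that opens the pathway, read 81.2 against 148 CPM in the 7 d pair. Pmvk read 32.5 against 70.7, Lss (lanosterol synthase) 23.4 against 40.2 and Ebp 57.7 against 116 CPM, so that these 4 were lower in that culture too. Msmo1 was nearly level, at 290 against 311 and 375 against 300 CPM. Upward past the fold in the 7 d pair, Mvd read 41.5 against 22.6 CPM, Ggps1 36.1 against 18.7 and Hsd17b7 45.1 against 21.5. The Hsd17b7 difference of 1.03 came within the fold under the stricter class rule, at 0.15.

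The Leydig markers themselves moved between the libraries. Cyp17a1, which makes androgens from progestins, read 72.9, 4170, 238 and 1520 CPM. Insl3, a peptide hormone of Leydig cells, read 188, 1530, 112 and 689 CPM. Cyp11a1, the side-chain cleavage enzyme that takes cholesterol as its substrate, went the other way, at 5110, 2840, 5300 and 2790 CPM. Hsd3b6, an isoform of adult Leydig cells, reached 687 CPM at 14 dpp and 3.41 to 30.7 CPM elsewhere. Whether the Leydig classes hold the same mix of cells was not tested. A stricter class rule left 12 and 15 cultured Leydig cells, at 2 d and 7 d. Over every alternative run the Dhcr7 differences lay between -3.18 and -1.61. With each cell weighted equally, 8 of the 12 downward calls of the 2 d pair came within the fold (Hmgcs1, Mvk, Sqle, Cyp51, Sc5d, Srebf2, Stard4 and Npc1, but not Idi1, Dhcr7, Abca1 and Scarb1), as did Hmgcs1 and Idi1 in the 7 d pair. Markers of other classes differed too: in the Leydig classes Sertoli markers summed to 495, 1560, 1020 and 1650 CPM and stromal markers to 1160, 2450, 1440 and 2370 CPM. Genes of inflammation (Saa3, Ccl2, Cxcl1, Cxcl5, Il6, Lcn2, Hp and C3) summed to 12400, 45.7, 1390 and 83.7 CPM. The part of these lists in the Leydig values was not tested.

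In stromal cells 2 of the 19 enzymes were past the fold in the 2 d pair, both downward, and 6 in the 7 d pair, 4 upward and 2 downward. The median difference was -0.24 in the 2 d pair (-0.29 to -0.07 over the alternatives), beside -0.17 for all genes tested, and 0.27 in the 7 d pair (0.09 to 0.32), beside -0.01. In the 2 d pair 4 members were past the fold upward (Npc2, Abca1, Abcg1, Apoe; background 10.5%) and 2 downward (Sqle, Dhcr7; background 19.1%). In the 7 d pair 9 were past it upward (Fdft1, Sqle, Cyp51, Msmo1, Insig1, Npc2, Abca1, Abcg1, Apoe; background 12.3%) and 2 downward (Pmvk, Tm7sf2; background 11.1%). Sqle shows the turn: it read 62.6, 95.4, 108 and 60.0 CPM. The first of these differences, -0.60, came within the fold under 5 of 12 alternatives, the second, 0.84, under none. In the 7 d pair Fdft1 (0.59), Msmo1 (0.62) and Tm7sf2 (-0.66) came within it under 4, 2 and 3 of 12. Dhcr7 in the 2 d pair (-0.74) did so under 2.

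**Figure D3:**
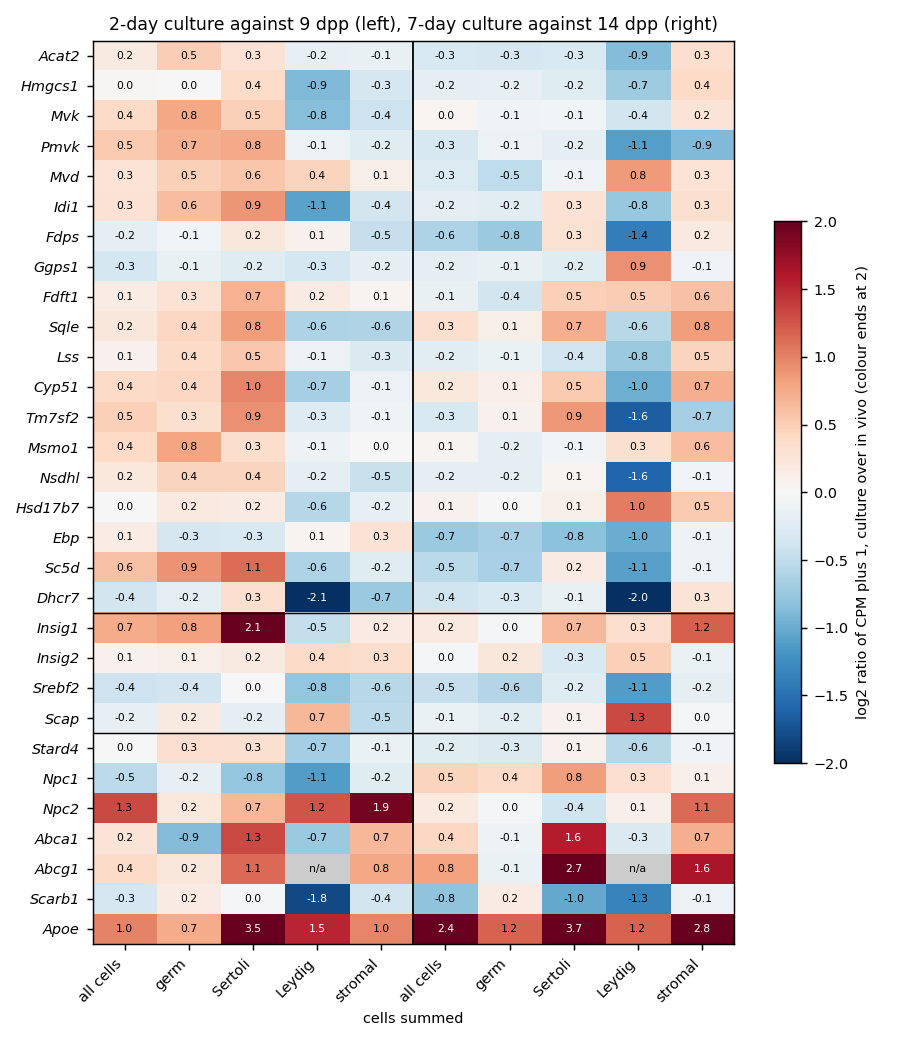
Log2 ratio of CPM plus 1, culture over in vivo, for each member (rows) in all cells and in the 4 classes (columns), with the 2 d pair on the left and the 7 d pair on the right; red is higher in culture and grey marks Abcg1 in Leydig cells, which had no UMI. The Leydig columns are mostly blue among the enzymes (median -0.26 and -0.76), and the Apoe row is red in every column.

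Over time in culture all 19 enzymes were lower at 7 days than at 2 days in germ cells, and 17 of the 19 in Sertoli cells. In the latter, Ebp and Ggps1 were higher at 7 days, at 89.8 against 69.0 and 40.9 against 33.8 CPM. Comparisons over time share their libraries with the pairs above, so their values are not independent of them. In germ cells 17 members were past the fold downward from the 2-day to the 7 d culture, where 12.7% of all genes were, and 12 of the 17 were enzymes; the enzyme median was -0.87. From 9 dpp to 14 dpp in vivo 4 were past it downward (background 8.97%), with an enzyme median of -0.25. In Sertoli cells 18 members were past it downward in culture (background 10.1%), 15 of them enzymes, with a median of -0.74, and 6 in vivo (background 18.0%), with a median of -0.25. Mvd, which decarboxylates mevalonate diphosphate, showed the largest germ difference among the enzymes, at 89.3, 64.2, 29.6 and 42.5 CPM, so that it was highest in the first culture and lowest in the later one.

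Leydig and stromal enzymes had medians of -0.23 and 0.14 over time in culture. In vivo those medians were -0.07 and -0.37, and 7 stromal members were past the fold downward from 9 dpp to 14 dpp (Mvk, Fdps, Sqle, Lss, Cyp51, Dhcr7 and Insig1; background 9.80%). Over all cells 11 members were past the fold downward in culture (background 7.38%) and Apoe alone upward (background 12.1%). In vivo none was past it downward (background 8.53%) and Sc5d alone upward, from 16.6 to 26.0 CPM (background 8.97%).

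Among the regulators, Insig1 had the largest ratio in Sertoli cells of the 2 d pair, and Scap and Srebf2 had opposite signs in Leydig cells. Insig1, itself a target of SREBP2, read 89.4, 19.7, 20.1 and 12.4 CPM in Sertoli cells. The differences were 2.12 (95% interval 1.98 to 2.38) and 0.65 (0.35 to 1.04), and the 2 d culture stood apart from the other 3 libraries. Over the alternatives run, the first lay between 1.74 and 2.70. Adding 10 to the CPM or using the stricter cell filter brought the difference of the 7 d pair within the fold. In germ cells Insig1 read 132 CPM against 74.5 in the 2 d pair and 46.0 against 46.9 in the 7 d pair. In stromal cells the later pair differed more, with 40.9 against 36.3 CPM and then 51.7 against 21.9, differences of 0.17 and 1.20. Over all cells it read 90.6, 54.0, 41.5 and 36.0 CPM.

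Srebf2, which encodes SREBP2, was lower in both cultures over all cells, at 46.9 against 63.2 and 34.8 against 48.1 CPM, differences of -0.42 and -0.46 that stay within the fold. In Leydig cells it read 42.2 against 73.0 CPM and 32.5 against 71.8 CPM, past the fold in both pairs, though the first difference, -0.78, was -0.48 with each cell weighted equally. Scap went the other way there, at 167 against 105 CPM and 207 against 82.6 CPM, differences of 0.66 and 1.32. The intervals of the levels did not overlap for Scap in either pair; under both other class rules its first difference was within the fold. Over all cells Scap read 67.6, 75.9, 59.2 and 65.3 CPM, all within 1.5-fold of each other. Insig2, the other retention protein, read 70.6 against 66.6 and 93.5 against 96.5 CPM, and was higher in the later libraries whether cultured or not.

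Of the transport genes, Apoe was higher in culture in all 4 classes and in both pairs, with germ cells near background. In stromal cells it read 807, 412, 5030 and 748 CPM. The differences were 0.97 (95% interval 0.91 to 1.03) and 2.75 (2.69 to 2.81), and the 7 d culture was far above the other libraries. In stromal cells the higher level was spread over cells: the median cell held 3070 CPM in the 7 d culture against 518, and the tenth of cells with most Apoe UMIs held 38.3% and 37.6% of them. In Leydig cells Apoe read 2570 against 897 and 4070 against 1790 CPM. Over all cells it read 387 against 194 and 1040 against 203 CPM, the second a difference of 2.35.

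In Sertoli cells Apoe read 107, 8.60, 123 and 8.59 CPM. The in vivo levels were 4.44% and 4.23% of those of the whole library, near the estimates of free RNA in those classes (3.83% and 3.58%), and are read as background. The cultured levels were 27.6% and 11.9% of the whole library, against estimates of 6.77% and 4.94%. The median Sertoli cell had no Apoe UMI in either culture, and the tenth of cells with most of them held 68.3% and 77.0% of the Apoe UMIs. Leydig markers in the Sertoli classes summed to 55.4, 23.4, 16.4 and 18.2 CPM, beside 198, 357, 186 and 315 CPM over all cells. Stromal markers there summed to 157, 36.8, 46.6 and 22.0 CPM, above the in vivo partner in both cultures as Apoe was. The part of either list in the Apoe values was not tested. With that estimate subtracted, 86.5 and 75.5 CPM remained in culture and 1.23 and 1.37 CPM in vivo. Germ cells held 20.3, 11.8, 27.5 and 11.6 CPM, or 2.65% to 6.08% of the whole library, and the subtraction brought the first pair to 7.80 against 7.29 CPM.

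Npc2, which hands cholesterol to NPC1 in lysosomes, had the largest ratio of the members over all cells in the 2 d pair. It read 654, 261, 306 and 267 CPM. In stromal cells it read 1230 against 323 CPM and 617 against 280 CPM, differences of 1.92 (1.86 to 1.99) and 1.14 (1.04 to 1.24), so both cultures lay above both in vivo libraries. Npc1, the membrane partner, did not follow. In Sertoli cells it read 8.99 CPM against 16.2 in the 2 d pair and 10.9 against 5.65 in the 7 d pair, a turn of direction from -0.78 to 0.84 at low levels.

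In the stromal class, genes of inflammation and of myoid cells moved in the same libraries. The same inflammation list summed to 35000, 12.2, 4450 and 20.1 CPM. Peritubular myoid markers summed to 2710, 6930, 4070 and 8990 CPM, and macrophage markers to at most 3.54 CPM. Proliferation genes in this class summed to 402, 510, 113 and 199 CPM. The part of these lists in the stromal enzyme, Apoe and Npc2 values was not tested.

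The efflux pumps were higher in cultured Sertoli and stromal cells. In Sertoli cells Abca1 read 58.8, 22.9, 83.2 and 27.4 CPM, differences of 1.32 (1.15 to 1.57) and 1.57 (1.40 to 1.80). Abcg1 read 27.4, 11.9, 32.9 and 4.22 CPM, differences of 1.13 and 2.70. For both genes the cultured Sertoli cells lay above both in vivo libraries. In the same Sertoli classes the inflammation list summed to 1080, 3.00, 153 and 6.92 CPM and proliferation genes to 86.7, 450, 110 and 293 CPM, and the part of either in the pump values was not tested. In stromal cells Abca1 read 39.7 against 24.6 and 59.9 against 35.9 CPM. Abcg1 was scarce there, with 53 UMIs over the 4 libraries, and read 2.40 against 0.99 and 3.73 against 0.529 CPM. Its stromal differences of 0.77 and 1.63 came within the fold under 2 and 1 of 12 alternatives, at their lowest 0.17 and 0.38. Over all cells Abcg1 read 11.4 against 8.51 and 11.0 against 5.91 CPM, and adding 10 to the CPM brought the second difference within the fold. Leydig cells held the most Abca1, at 207 against 347 CPM in the 2 d pair and 225 against 277 in the 7 d pair. Germ cells held the least, 7.45 to 14.4 CPM.

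Scarb1 was lower in cultured Leydig cells, where its receptor brings in lipoprotein cholesterol. It read 180, 632, 142 and 359 CPM. The differences were -1.80 (95% interval -2.13 to -1.50) and -1.33 (-1.69 to -0.99), and cultured and in vivo levels did not overlap. In Sertoli cells it read 134 against 138 CPM in the 2 d pair and 92.8 against 189 in the 7 d pair, differences of -0.04 and -1.02. Over all cells it read 66.6 against 83.7 and 48.0 against 84.0 CPM. Stard4, a carrier of sterol within the cell, was within the fold in both pairs over all cells (35.4 against 35.4 and 22.8 against 27.1 CPM) and was past it in the classes only downward in Leydig cells of the 2 d pair, at 19.2 against 31.4 CPM.

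**Figure D4:**
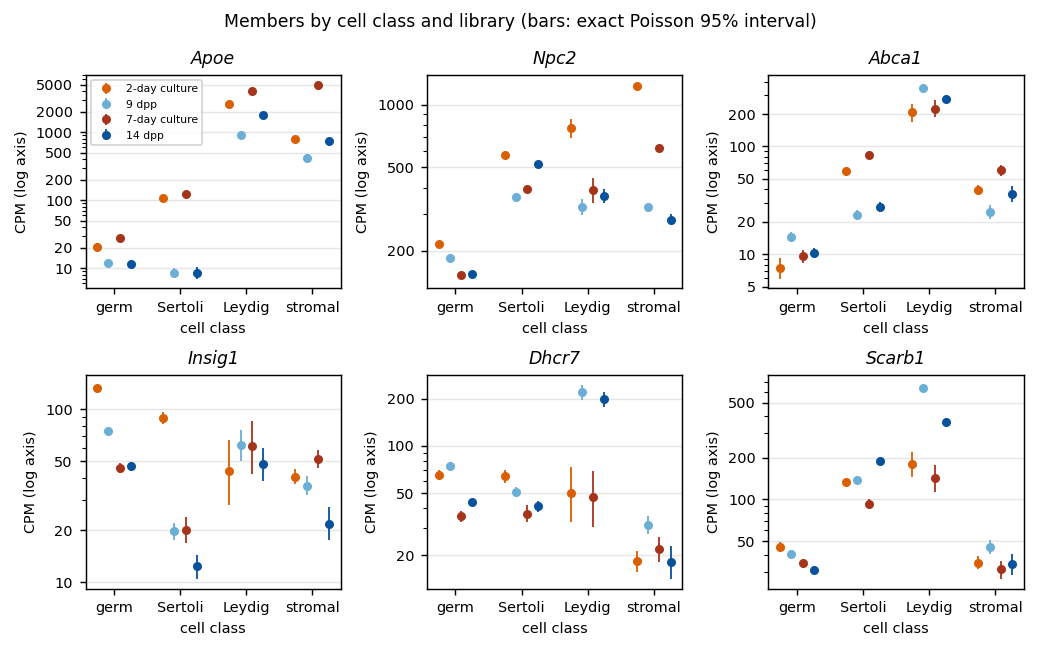
Level of 6 members in CPM on log axes, by cell class, with a point for each library and exact Poisson 95% intervals. Cultured libraries (orange and brown) lie above the in vivo libraries (blues) for Apoe in each class, from 8.59 CPM in Sertoli cells at 14 dpp to 5030 CPM in stromal cells of the 7 d culture, and below them for Dhcr7 and Scarb1 in Leydig cells.

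Over all cells the other 2 members past the fold in the 7 d pair were Fdps and Ebp. Fdps read 154, 176, 82.7 and 128 CPM, lowest in the 7 d culture. Ebp read 38.6, 34.6, 29.5 and 49.9 CPM, highest at 14 dpp. The Fdps difference of -0.62 came within the fold under 2 of 8 alternatives, and that of Ebp, -0.74, under the stricter cell filter, at -0.47. The remaining 17 enzymes lay between -0.54 and 0.33 in the 7 d pair, and all 19 between -0.37 and 0.58 in the 2 d pair.

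Across the classes, Leydig cells held the highest level of 14 of the 19 enzymes at 9 dpp and of 14 at 14 dpp, with separate 95% intervals from the next class for 12 and 14 of them. In the 2 d culture they were highest for 10 (separate for 5) and in the 7 d culture for 15 (separate for 6). The share of all genes highest in Leydig cells was not computed, so these counts have no background beside them. Hmgcs1 was ordered alike at 9 dpp and 14 dpp: 731 and 601 CPM in Leydig cells, 177 and 160 in Sertoli cells, 140 and 108 in stromal cells and 72.0 and 61.6 in germ cells. Ggps1, which makes the geranylgeranyl group for proteins rather than sterol, was highest in germ cells in all 4 libraries, at 65.5, 73.0, 53.5 and 59.6 CPM. Of the members, 5 overlap a protein-coding gene on the opposite strand (Mvd, Ggps1, Fdft1, Cyp51 and Npc1), and 2 overlap one on the same strand (Fdps and Tm7sf2). Hmgcs1, Lss and Npc1 overlap a counted feature that is not protein-coding; whether counting used strand is not given in the sources used here.

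Other genes of lipid metabolism were counted over all cells by the same rule. Of 11 genes of fatty acid synthesis and SREBP1, 1 was past the fold upward in the 2 d pair (Scd1, a stearoyl-CoA desaturase, 9.94 against 2.24 CPM; background 8.84%) and 2 downward in the 7 d pair (background 7.51%). Acly, which supplies cytosolic acetyl-CoA, read 74.8 against 105 and 52.5 against 80.3 CPM, and Fads2, a fatty acid desaturase, read 10.8 against 16.0 and 7.84 against 18.9 CPM. Elovl6, a fatty acid elongase, read 15.6 against 13.5 and 13.0 against 10.5 CPM. Of 14 further genes of sterol handling, 4 were past the fold upward and 1 downward in the 2 d pair (backgrounds 8.84% and 11.3%), and 7 and 1 in the 7 d pair (9.03% and 7.51%). Vldlr, a lipoprotein receptor, read 9.48 against 2.95 and 4.45 against 0.907 CPM, and Mylip, an LXR target that degrades lipoprotein receptors, read 10.3 against 5.0 and 11.0 against 5.44 CPM. Nr1h2, which encodes LXR-beta, read 47.5 against 50.6 and 46.2 against 51.6 CPM. None of the 7 genes of the isoprenoid branch was past the fold in either pair; Fnta, a farnesyltransferase subunit, read 114 against 92.9 and 135 against 118 CPM. Fntb, its partner subunit, read 15.9 against 18.4 and 10.9 against 14.4 CPM, and Dhdds, of dolichol synthesis, read 25.0 against 28.4 and 21.1 against 24.5 CPM.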

How the data were processed

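Testis cells of 4 libraries, 1 for each group, were measured with Chromium 3′ v2 single-cell RNA sequencing on an Illumina HiSeq instrument, per the labels' protocols. The authors deposited a matrix of raw UMI counts for each library, for which the submitters' processing notes name Cell Ranger 3.0.2 and mm10; the annotation, the cell-calling settings and the use of strand are not given in the sources used here. Of the 31053 gene identifiers, 30934 were found in GENCODE M21.

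Cells needed 500 detected genes and a mitochondrial share of no more than 20%, and Scrublet calls (scanpy 1.11.5, expected rate 6%) were removed: 253, 143, 93 and 143 cells, or 3.55%, 2.70%, 1.89% and 2.26%. For each class, each marker's value per cell was divided by its 99.5th percentile, with 1 as the ceiling, and averaged over the list; a cell joined the highest class if 3 different markers were seen and the score was 2 times the next. Endothelial, macrophage and mural cells were set aside, and 9.04% to 11.7% of cells stayed unassigned. The markers were 10 germ, 10 Sertoli, 7 Leydig and 9 stromal genes, and the lists beside the results were stage, proliferation, inflammation, blood and myoid genes. Over all cells, in the order 2 d culture, 9 dpp, 7 d culture and 14 dpp, proliferation genes read 824, 1090, 1120 and 1210 CPM, meiotic prophase genes 562, 491, 1640 and 1420, and lymphocyte and red cell genes 130, 36.1, 3.23 and 230. In the 4 classes used, endothelial markers summed to at most 86.7 CPM, mural markers to at most 35.4 and macrophage markers to at most 35.6.

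Counts were summed per library or class and scaled to CPM, with exact Poisson 95% intervals. Exact conditional binomial intervals were taken of the ratios without the 1 added to CPM. Total counts after filtering were 32078508, 57585867, 37117012 and 56210929, so intervals are narrow over all cells and wide in Leydig cells. UMIs mark molecules, but intervals cover counting error only. No test across genes was made, since each group has 1 library.

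The members and lists were chosen with earlier results of these data known. A member's CPM is given in every library where it was past 1.5-fold over all cells in either pair, or, in a class, past it in both pairs; the regulators and Apoe are given in any case, and other values serve as examples. Of the other pathway genes, the named ones are those with the largest smaller ratio among those whose pairs had 1 sign, and Scd1 is the 1 gene of its list past the fold upward. Alternatives covered the constant added to CPM, cell filter, doublets, equal weight for each cell, TMM factors (edgeR 4.0.16), median-of-ratios factors as DESeq2 computes them, class rule, free RNA, UMI minimum and fold. Cells with at least 2000 UMIs and cells with at most 1 germ marker were added after seeing the data. Free RNA in a class was estimated as the median, over the markers of the other 3 classes, of their level in the class relative to the whole library.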

Additional observations from a re-analysis of the deposited data

Results flagged for a closer look

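Each result here has opposite signs past 1.5-fold in 2 pairs or in 2 classes. With 1 library per group none of these differences was tested. The share of all genes that meet these rules was not computed, so the counts below have no background and are not particular to the members. Values are log2 ratios of CPM plus 1, culture over in vivo.

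Between the pairs, 3 members turned round within a class. Sc5d in germ cells was 0.90 in the 2 d pair and -0.65 in the 7 d pair. Npc1 in Sertoli cells was -0.78 and then 0.84. Sqle in stromal cells was -0.60 and then 0.84. The second Sc5d value came within the fold under 1 of 11 alternatives, each Npc1 value under 1 of 12 and the first Sqle value under 5 of 12.

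Between classes in the 2 d pair, 5 enzymes and Abca1 had opposite signs. Mvk was 0.77 in germ cells and -0.85 in Leydig cells. Idi1 was 0.62 in germ cells and 0.89 in Sertoli cells, against -1.07 in Leydig cells. Sqle was 0.83 in Sertoli cells, against -0.62 in Leydig and -0.60 in stromal cells, which came within the fold under 6 and 5 of 12 alternatives. Cyp51 was 0.98 in Sertoli cells and -0.67 in Leydig cells. Sc5d was 0.90 in germ cells and 1.11 in Sertoli cells, against -0.61 in Leydig cells. The efflux pump gene Abca1 was 1.32 in Sertoli cells and 0.67 in stromal cells, against -0.87 in germ cells and -0.74 in Leydig cells. The Leydig values of Sc5d, Cyp51 and Mvk came within the fold under 6, 3 and 2 of 12 alternatives, the germ values of Idi1 and Abca1 under 2 and 1 of 11, and the stromal value of Abca1 under 2 of 12.

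In the 7 d pair, Cyp51 was 0.72 in stromal cells and -0.97 in Leydig cells. Tm7sf2 was 0.87 in Sertoli cells, against -1.65 in Leydig cells and -0.66 in stromal cells; the Sertoli value came within the fold under 1 of 12 alternatives and the stromal value under 3.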

How the results depend on the processing

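No paired analysis was possible because each group has 1 library, and for the same reason no library could be left out. The 94 member differences past 1.5-fold kept their direction in all 1083 values computed under the alternatives, and 1004 of these stayed past the fold. A change of the constant added to CPM cannot turn a sign, so the values under those alternatives could not have reversed. These differences were also picked by size in the same counts, which makes a reversal less likely. The enzyme median of the 2 d pair over all cells moved from 0.21 to 0.37 with TMM factors and 0.36 with median-of-ratios factors, as the median of all genes went from -0.12 to 0.02 and 0.01. The culture contrast over time went from -0.50 to -0.64 and -0.63. In germ cells the 2 d pair fell to 0.29 with each cell weighted equally, and the culture contrast over time was -0.67 in place of -0.87 with 10 added to CPM. The enzyme medians near 0 could change sign: stromal cells over time in culture ranged from -0.03 to 0.22, and Leydig cells over time in vivo from -0.22 to 0.04.

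A fold of 2 left fewer members. Past it upward over all cells were 1 (4.19% of all genes) in the 2 d pair and 1 (3.60%) in the 7 d pair, and downward 0 (3.41%) and 0 (2.67%). In germ cells these were 0 (1.28%) and 1 (0.769%), and 0 (3.17%) and 0 (2.33%). In Sertoli cells they were 5 (6.49%) and 3 (9.89%), and 0 (6.09%) and 1 (7.90%). In Leydig cells they were 2 (4.59%) and 3 (6.13%), and 4 (11.2%) and 8 (9.47%). In stromal cells they were 1 (6.04%) and 4 (5.67%), and 0 (7.01%) and 0 (4.27%). The Leydig classes held 521530 to 1768136 UMIs, the fewest of the 4 classes in each library, and Npc1 there in the 2 d pair ranged from -4.63 to -0.01 over the alternatives.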

Other observations

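Among the 14 genes of sterol handling outside the members, Lpl, Plin2 and Soat1 were chosen here after their values were seen. Lpl, which encodes lipoprotein lipase, read 21.2 CPM in the 2 d culture and 26.3 at 9 dpp over all cells, then 77.1 in the 7 d culture and 6.40 at 14 dpp, ratios of -0.30 and 3.40 on the log2 scale. Plin2, which coats lipid droplets, read 55.1 against 38.3 CPM and 68.0 against 26.5 CPM, ratios of 0.51 and 1.33. Soat1, which esterifies cholesterol for storage, went the other way in the 7 d pair, at 31.7 against 57.6 CPM. For all 3 genes the 7 d culture and 14 dpp differed by more than 1.5-fold, and no replicate bears on these values.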
